A study of Mus musculus with 18 samples.

Results

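The genes described here are the 5 subunits of the transcription factor NF-κB (Rel, Rela, Relb, Nfkb1 and Nfkb2), 4 genes for IκB-type proteins that bind these subunits (Nfkbia, Nfkbid, Nfkbiz and Bcl3) and Tnfaip3, a feedback inhibitor of the pathway. They were taken from the expression table by symbol, and all 10 were found among its 37236 genes. They were followed in RNA of CD3+ tumour-infiltrating T cells from C57BL/6 mice that carried B16-OVA tumours, a mouse melanoma line that expresses ovalbumin as a model antigen. Mice were wild-type (Nr2f6+/+) or lacked the nuclear receptor Nr2f6 in the whole animal from the germ line (Nr2f6-/-), so that tumour-bearing hosts and T cells of one genotype shared the deletion. All were young adults, all received 500000 tumour cells under the skin, and from d3 on they were given repeated intraperitoneal doses of 0.5 mg of a PD-L1 blocking antibody (αPD-L1) or of the control antibody IgG2b. Tumours were taken at d14, T cells were enriched with CD4 and CD8 beads, pooled and sorted for CD3, and reads were taken from the 3′ ends of their transcripts. The 18 samples comprised 3 of each genotype with IgG2b and 6 of each genotype with αPD-L1.

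In resting T cells, NF-κB dimers are held in the cytoplasm by IκB proteins, and signals from the antigen receptor and from TNF receptor family members lead to the destruction of IκBα (Nfkbia) and the release of Rel- and RelA-containing dimers. A slower branch processes the Nfkb2 precursor and frees RelB. Nfkbid, Nfkbiz and Bcl3 encode nuclear IκB proteins, which act on NF-κB that is already at DNA, while Tnfaip3 encodes A20, a ubiquitin-editing enzyme that dampens signalling to the IKK kinases, and several of these genes are themselves known targets of NF-κB.

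Depth was between 12473391 and 18609482 reads counted on genes per sample, and 3 reads, taken as the smallest level that the depth can show, corresponded to 2.46 to 3.64 normalized counts. This limit covers counting error only, and the 10 genes were above it in every sample. Nr2f6 had 0 reads in all 9 Nr2f6-/- samples and 20.2 to 201 normalized counts in the 9 Nr2f6+/+ samples. Of T cell markers, Cd3e, a chain of the antigen receptor complex, was at 7381 to 15541 normalized counts in the 18 samples. Genes of other cells were also present: Lyz2, a macrophage lysozyme, was at 296 to 7325 and Pmel, a melanocyte gene, at 119 to 1891 normalized counts. Of 4 B cell markers Cd79a was at 0 in all samples, while Cd79b reached 192 in Nr2f6+/+ IgG2b, 0.951 in Nr2f6-/- IgG2b, 20.4 in Nr2f6+/+ αPD-L1 and 150 in Nr2f6-/- αPD-L1. The library numbers fell into a first set with 3 samples of each group and a second set with 3 samples of each αPD-L1 group only, so that antibody treatments can be set side by side within the first set alone. In these bulk samples fewer cells of a type and less RNA per cell cannot be told apart.

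All 10 genes passed the filter of a mean of at least 10 normalized counts, which kept 11992 genes. A normalized count is the number of reads on a gene divided by a size factor of the sample. For the tests, 1 was added before taking log2, so fold changes are on the log2(normalized count + 1) scale, and a gene is called where its two-sided limma p-value, adjusted by the Benjamini-Hochberg method over the 11992 genes, was below 0.05. The p-values measure the spread between samples within groups, estimated once for each gene over all 4 groups. limma then drew each estimate toward the spread of tested genes of similar level. The p-values of comparisons between IgG2b groups thus also draw on the spread of the αPD-L1 samples. Levels are compared for one gene between samples and not between genes.

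The starts of Tnfaip3 and Nfkbia are shown because both genes were among those with lower values under αPD-L1 in one or both genotypes, and because both are known targets of NF-κB. RefSeq promoters of GRCm38.p6, each with 250 bases before and 50 bases after a start site, were matched for 7 of the 10 genes. Nfkb1, Relb and Nfkbiz had no entry. The Tnfaip3 stretch lies on the minus strand at chr10:19015411-19015547, from 137 bases to 1 base before the start site, and the Nfkbia stretch on the minus strand at chr12:55492648-55492767, from 120 bases to 1 base before it. Neither overlaps an exon of the GENCODE annotation, but the Tnfaip3 stretch lies inside the annotated gene, between alternative first exons. Capitals mark matches to the κB consensus of 10 bases and, in Tnfaip3, to the AP-1 motif TGANTCA, searched on both strands.
Tnfaip3: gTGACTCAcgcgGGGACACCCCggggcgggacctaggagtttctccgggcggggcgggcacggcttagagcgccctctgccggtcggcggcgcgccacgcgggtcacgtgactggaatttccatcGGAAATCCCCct
Nfkbia: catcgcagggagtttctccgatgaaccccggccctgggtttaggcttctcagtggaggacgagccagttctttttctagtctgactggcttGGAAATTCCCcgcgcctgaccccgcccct
In Tnfaip3 the κB matches began 125 and 12 bases before the start site and the AP-1 match 136 bases before it, and in Nfkbia the κB match began 29 bases before it. At least 1 promoter with a κB match was found for 6 of the 7 genes, all but Rela, whereas 8.46% of 32851 promoters held one. The AP-1 motif was in a promoter of Tnfaip3 and of Nfkb2, 2 of the 7 genes, and in 7.81% of all promoters. The letters AGGTCA, a hexamer that nuclear receptors can bind, were in a promoter of 1 of the 7 genes, Nfkbid, and in 16.3% of all promoters. These matches describe the sequence only, and Nfkbid and Nfkb2, with 3 promoter entries each, and Tnfaip3, with 2, had more chances to hold one than the genes with 1 entry.

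PD-L1 blockade was first examined in Nr2f6+/+ mice. Nfkbiz and Tnfaip3 fell with the antibody, Nfkbiz 6.14-fold and Tnfaip3 4.06-fold, and these were the 2 called genes of the 10, against 0.242% of all tested genes, every one of them lower. edgeR and DESeq2 on the reads called the same 2 of the 10, against 0.158% and 0.784% of all tested genes. At an unadjusted limma p below 0.05 there were also these 2, against 7.24%. None of the 5 subunits was called. The IκBα gene Nfkbia was at nearly the same level with both antibodies.

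Nfkbiz, which encodes the nuclear protein IκBζ, was at 966, 846 and 809 normalized counts in the 3 Nr2f6+/+ IgG2b samples and between 65.0 and 305 in the 6 Nr2f6+/+ αPD-L1 samples, with a median of 140. The groups did not overlap, and every αPD-L1 sample was below the lowest IgG2b sample. The log2 fold change was -2.62 (standard error 0.50, limma adjusted p = 0.0120).
Tnfaip3 was at 2749, 2923 and 3063 normalized counts with IgG2b and between 295 and 1175 with αPD-L1, with a median of 880. Again all 6 αPD-L1 samples lay below the 3 IgG2b samples. The log2 fold change was -2.02 (standard error 0.38, limma adjusted p = 0.00927).
Both calls rest on the small IgG2b group: leaving out any 1 of its 3 samples gave limma adjusted p between 0.0987 and 0.106 for Nfkbiz and between 0.0612 and 0.106 for Tnfaip3, with log2 fold changes between -2.67 and -2.54 and between -2.06 and -1.98. Calls over all 11992 tested genes also fell, from 29 to 10, 8 and 6 without IgG2b replicates 1, 2 and 3. Within the first library set both remained called, at a log2 fold change of -2.25 for Nfkbiz (adjusted p = 0.0121) and of -2.10 for Tnfaip3 (adjusted p = 0.0338). With the library set as a covariate neither was called (log2 fold changes -2.06 and -1.78, adjusted p = 0.0678 and 0.0607).

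**Figure D1:**
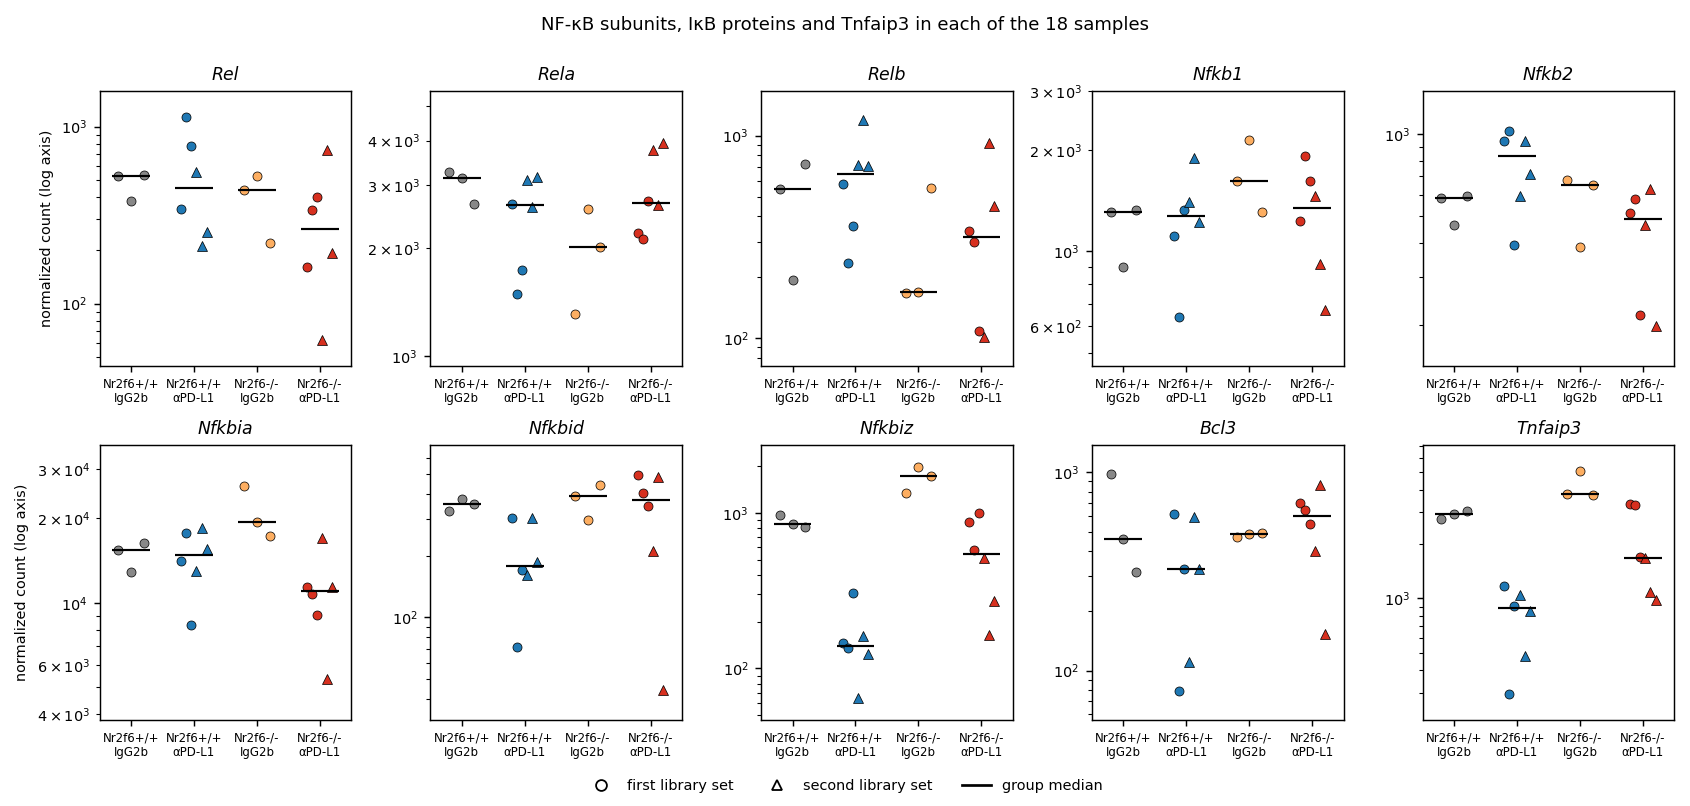
Normalized counts (log axis, a separate scale in each panel) of the 10 genes in each of the 18 samples, by group. Circles are samples of the first library set, triangles those of the second, and horizontal lines the group medians. Nfkbiz and Tnfaip3 of all 6 Nr2f6+/+ αPD-L1 samples lie below the 3 samples of both IgG2b groups, while the 4 groups overlap for Rel, Nfkb1 and Relb.

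Other gene groups moved with these 2 genes. The summed level of 10 immediate early genes, which are switched on within minutes of a stimulus, was 30670 to 45610 normalized counts in Nr2f6+/+ IgG2b and 9887 to 17475 in Nr2f6+/+ αPD-L1, and 10 of its 10 genes had groups that did not overlap, all lower with αPD-L1, with 4 of them called (Fos, Egr1, Dusp1 and Nr4a1). The summed level of 13 macrophage and monocyte markers was 13558 to 17868 with IgG2b and 1558 to 6215 with αPD-L1, lower for all 13 by log2 fold change, with Lyz2 called (log2 fold change -2.83, limma adjusted p = 0.000387). The 8 T cell markers summed to 61103 to 73743 with IgG2b and 71391 to 92885 with αPD-L1. When the mean log2 level of the immediate early list was added to the model, the log2 fold change was -1.22 for Nfkbiz and -1.20 for Tnfaip3 (limma adjusted p = 0.998 for both). With the macrophage and monocyte list in the model it was -1.89 and -1.62 (adjusted p = 0.751 and 0.723). With either list added, 0 of all tested genes were called in this comparison. The sums of both lists did not overlap between the antibodies, so these fits cannot separate either list from the antibody.

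Among the other IκB-type genes, Nfkbid, which encodes IκBNS, was at 331, 378 and 357 normalized counts with IgG2b and at 71.4 to 306 with αPD-L1, median 178, in Nr2f6+/+ mice. These groups did not overlap either, but the log2 fold change of -0.98 (standard error 0.64) had an adjusted p of 0.812. Thus Nfkbiz, Tnfaip3 and Nfkbid were the 3 of the 10 genes with every αPD-L1 sample below every IgG2b sample, as were 3.22% of all tested genes. Bcl3, whose product binds p50 and p52 homodimers, was at 985, 460 and 313 with IgG2b and at 78.5 to 617 with αPD-L1, median 326, and the groups overlapped (log2 fold change -0.98, standard error 0.59, adjusted p = 0.791). Nfkbia was at 15411, 12877 and 16272 with IgG2b and at 8361 to 18450 with αPD-L1, median 14848. Its log2 fold change was -0.07, with a 95% confidence interval from -0.59 to 0.45.

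The subunits spread widely in the Nr2f6+/+ αPD-L1 samples and overlapped with IgG2b for all 5 genes. Rela, the main activating subunit of the classical branch, was at 3271, 3147 and 2666 normalized counts with IgG2b and at 1491 to 3163 with αPD-L1, median 2636. Rel, the subunit c-Rel that T cells induce on activation, was at 528, 381 and 534 with IgG2b and at 210 to 1141, median 450, with αPD-L1. Nfkb1, which encodes the p105 precursor of p50, was at 1314, 897 and 1332 against 638 to 1895, median 1273. All IgG2b samples of these 3 genes but 1 of Rela lay inside the αPD-L1 range. For the slower branch, Nfkb2, the p100 precursor of p52, was at 582, 464 and 592 with IgG2b and at 394 to 1030, median 830, with αPD-L1. Relb was at 546, 194 and 724 against 236 to 1192, median 644. The log2 fold changes of the 5 subunits lay between -0.35 (Rela) and 0.43 (Nfkb2), and the smallest adjusted p was 0.851.

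In Nr2f6-/- mice no gene of the 10 was called with blockade, against 0.325% of all tested genes. At an unadjusted p below 0.05 limma had 4 of the 10, against 9.7% of all tested genes, edgeR called 0, against 0.3%, and DESeq2 called 1 (Nfkbia), against 1.92%. The 3 lowest log2 fold changes were those of Nfkbiz, Tnfaip3 and Nfkbia. Nfkbiz was at 1350, 1959 and 1717 normalized counts with IgG2b and at 165 to 1004 with αPD-L1, median 548 (log2 fold change -1.80, standard error 0.50, limma adjusted p = 0.163). Tnfaip3 was at 3811, 5086 and 3751 against 984 to 3348, median 1683 (log2 fold change -1.22, standard error 0.38, adjusted p = 0.222). Nfkbia was at 26133, 19487 and 17246 against 5339 to 17038, median 11053 (log2 fold change -1.01, standard error 0.25, adjusted p = 0.0881). For these 3 genes every αPD-L1 sample was below every IgG2b sample, as it was for 3.15% of all tested genes. Rela was at 1312, 2570 and 2017 against 2123 to 3943, median 2684, and was the member with the highest log2 fold change, 0.57 (standard error 0.26, adjusted p = 0.473).

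For Nfkbiz and Tnfaip3 the size of this difference moved with the library set. In Nr2f6-/- αPD-L1 the mean of Nfkbiz was 819 normalized counts in the first set and 316 in the second, and that of Tnfaip3 was 2774 and 1249, each over 3 samples. In the first set alone, which holds all IgG2b samples, the log2 fold change in Nr2f6-/- mice was -1.05 for Nfkbiz, -0.66 for Tnfaip3 and -0.99 for Nfkbia. In Nr2f6+/+ αPD-L1 the means were 195 and 117 for Nfkbiz and 792 in both sets for Tnfaip3. The difference between the sets over both αPD-L1 groups was -1.11 on the log2 scale for Nfkbiz and 0.59 for Rela. Their unadjusted limma p was 0.00414 and 0.00338, and their adjusted p was 0.186 and 0.172. By limma 0 of the 10 genes were called between the sets, against 0.292% of all tested genes. In Nr2f6-/- mice too the immediate early sum was lower with αPD-L1, at 13077 to 32291 against 42556 to 46402 normalized counts, with Dusp1 and Nr4a1 called. The macrophage and monocyte sum was 1068 to 2397 against 7948 to 11870.

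**Figure D2:**
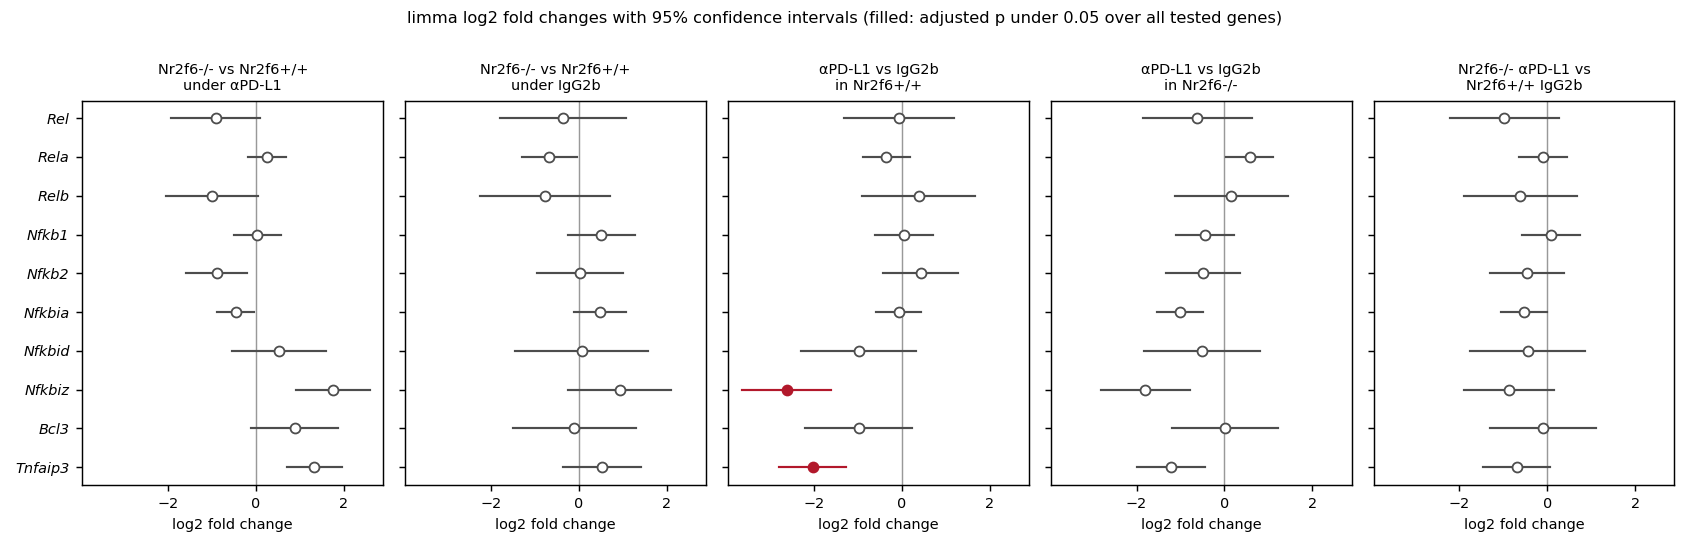
limma log2 fold changes (points) with 95% confidence intervals (bars) of the 10 genes in 5 comparisons, each on the log2(normalized count + 1) scale. Filled red points have an adjusted p below 0.05 over all tested genes, which holds for Nfkbiz and Tnfaip3 with αPD-L1 against IgG2b in Nr2f6+/+ mice and for no other point.

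The effect of the genotype under blockade was asked next, in 6 against 6 samples. No gene of the 10 was called with limma, against 0.175% of all tested genes, and 4 had an unadjusted p below 0.05, against 9.73% of all tested genes: Nfkbiz and Tnfaip3 with higher and Nfkb2 and Nfkbia with lower values in Nr2f6-/-. edgeR on the reads called 1 of the 10 (Nfkbiz) and DESeq2 called 2 (Nfkbiz and Tnfaip3), against 0.183% and 1.53% of all tested genes.

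Nfkbiz ranged from 65.0 to 305 normalized counts (median 140) in Nr2f6+/+ αPD-L1 and from 165 to 1004 (median 548) in Nr2f6-/- αPD-L1. The log2 fold change was 1.75 (standard error 0.41, 95% confidence interval 0.91 to 2.58, limma adjusted p = 0.0690). Tnfaip3 ranged from 295 to 1175 (median 880) and from 984 to 3348 (median 1683), and its log2 fold change was 1.32 (standard error 0.31, 95% confidence interval 0.70 to 1.95, adjusted p = 0.0634). For both genes 4 of the 6 Nr2f6-/- samples lay above all Nr2f6+/+ samples, and the 2 others were of the second library set. Within the first set the log2 fold change was 2.13 for Nfkbiz and 1.96 for Tnfaip3 (limma adjusted p = 0.0219 and 0.0459), and within the second 1.37 and 0.69 (adjusted p = 0.766 for both). Without Nr2f6-/- αPD-L1 replicate 5, or without replicate 6 of that group, both genes were called (adjusted p between 0.0138 and 0.0463). Without Nr2f6+/+ αPD-L1 replicate 1 Tnfaip3 was called (adjusted p = 0.0458), and without replicate 3 of the same group Nfkbiz was called (adjusted p = 0.0312). Each gene was thus called in 3 of the 18 fits with 1 sample left out. Those fits lacked 1 of the 2 lowest Nr2f6-/- αPD-L1 values of the gene or its highest Nr2f6+/+ αPD-L1 value. Leaving out such a sample widens the difference by itself.

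Under αPD-L1 the immediate early sum was 9887 to 17475 normalized counts in Nr2f6+/+ and 13077 to 32291 in Nr2f6-/-. All 10 genes of that list had a positive log2 fold change, and Egr1 was called (log2 fold change 1.08, limma adjusted p = 0.0197). With this list in the model the log2 fold change was 1.25 for Nfkbiz and 1.03 for Tnfaip3 (adjusted p = 0.657 and 0.605). The macrophage and monocyte sum was 1558 to 6215 in Nr2f6+/+ and 1068 to 2397 in Nr2f6-/-, with a negative log2 fold change for 9 of the 13 genes and 0 called. With that list in the model the log2 fold changes of Nfkbiz and Tnfaip3 were 1.96 and 1.44 (adjusted p = 0.0569 and 0.0606). The melanocyte markers summed to 2026 to 7149 in Nr2f6+/+ and 736 to 4371 in Nr2f6-/-, with 6 of 6 tested genes lower by log2 fold change and 0 called, and their part in the result was not tested. The 8 T cell markers summed to 71391 to 92885 in Nr2f6+/+ and 91565 to 101611 in Nr2f6-/-. Their log2 fold change was positive for 7 and negative for 1, with 0 called. Cd8a was at 5361 to 13579 against 11329 to 17120 and Cd4 at 1669 to 7358 against 2026 to 5857. The T cell list was not used as a covariate.

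**Figure D3:**
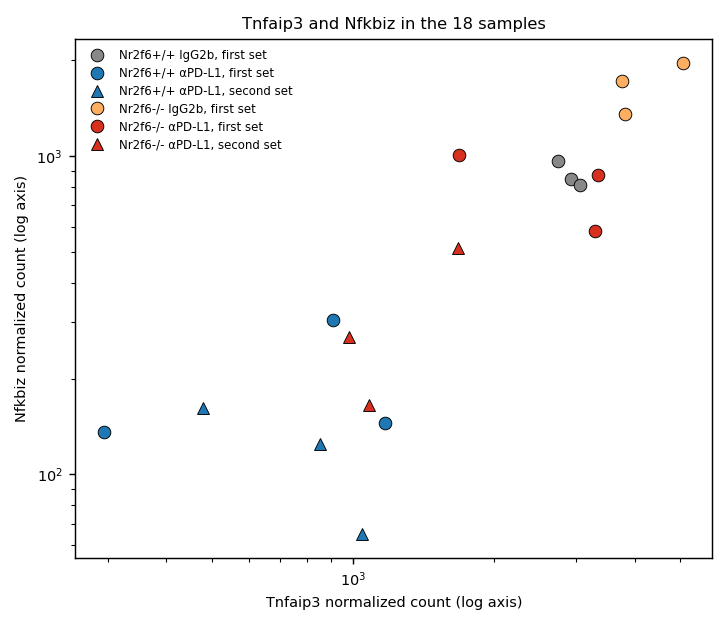
Normalized counts of Tnfaip3 (horizontal, log axis) and Nfkbiz (vertical, log axis) in the 18 samples, coloured by group, with circles for the first and triangles for the second library set. All IgG2b samples have at least 2749 counts of Tnfaip3 and at least 809 of Nfkbiz, the 6 Nr2f6+/+ αPD-L1 samples have at most 1175 and 305, and the 6 Nr2f6-/- αPD-L1 samples lie between and partly among both.

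Nfkb2 under αPD-L1 was at 394 to 1030 normalized counts (median 830) in Nr2f6+/+ and at 198 to 628 (median 489) in Nr2f6-/-. Its log2 fold change of -0.89 (standard error 0.34) had an unadjusted limma p of 0.0133 and an adjusted p of 0.360. Its partner in the slower branch, Relb, was at 236 to 1192 (median 644) and 102 to 921 (median 317), and Rel at 210 to 1141 (median 450) and 61.9 to 739 (median 265). For both the 95% confidence interval of the log2 fold change included 0 (-2.05 to 0.05 for Relb and -1.94 to 0.09 for Rel). Nfkbia was at 8361 to 18450 (median 14848) and 5339 to 17038 (median 11053), and differed by -0.46 on the log2 scale (limma standard error 0.21, unadjusted p = 0.0335, adjusted p = 0.465). Rela and Nfkb1 differed least of the subunits, with log2 fold changes of 0.25 and 0.03, and Nfkbid and Bcl3 had 0.53 and 0.88 with adjusted p of 0.789 and 0.581. For all 10 genes the 2 αPD-L1 groups overlapped, while 0.592% of all tested genes had groups that did not. Over the 10 genes the median log2 fold change was 0.14, beside -0.005 over all tested genes.

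Without blockade, Nr2f6-/- IgG2b was set against Nr2f6+/+ IgG2b in 3 against 3 samples. No gene of the 10 was called by limma, and neither was any other gene (0%). At an unadjusted p below 0.05 limma had 641 genes, 5.35% of those tested, among them 1 of the 10 (Rela). edgeR called 0 genes (0%) and DESeq2 88 (0.734%), none of them among the 10. Nfkbia, Nfkbiz and Tnfaip3 were higher in all 3 Nr2f6-/- samples than in all 3 Nr2f6+/+ samples, and Rela was lower, which makes 4 of 10 genes with groups that did not overlap against 14.2% of all tested genes. The ranges were 17246 to 26133 against 12877 to 16272 normalized counts for Nfkbia, 1350 to 1959 against 809 to 966 for Nfkbiz, and 3751 to 5086 against 2749 to 3063 for Tnfaip3. Rela was at 1312 to 2570 in Nr2f6-/- and at 2666 to 3271 in Nr2f6+/+. Macrophage, monocyte and melanocyte markers were mostly lower in Nr2f6-/-. The macrophage and monocyte sum was 7948 to 11870 in Nr2f6-/- and 13558 to 17868 in Nr2f6+/+. Of its 13 genes 12 had a negative log2 fold change, and 4 had lower groups without overlap. The melanocyte sum was 1156 to 2336 against 2495 to 4665, negative for 6 of 6 tested genes and without overlap for 4. In both lists 0 genes were called by limma. With the macrophage and monocyte list in the model the log2 fold changes of Nfkbia, Nfkbiz and Tnfaip3 were 0.36, 1.09 and 0.61 (adjusted p = 0.980, 0.979 and 0.980), and the part of the melanocyte list was not tested. The macrophage and monocyte sums did not overlap between the genotypes, so this fit cannot separate that list from the genotype. The immediate early sum was 42556 to 46402 in Nr2f6-/- and 30670 to 45610 in Nr2f6+/+. Of its 10 genes 5 had a positive and 5 a negative log2 fold change, 2 were higher without overlap and 0 were called by limma. The log2 fold changes of Nfkbia, Nfkbiz, Tnfaip3 and Rela were 0.48, 0.93, 0.52 and -0.67, and the confidence intervals of the first 3 included 0 (-0.12 to 1.08, -0.25 to 2.11 and -0.37 to 1.41). For the remaining members the Nr2f6-/- IgG2b values overlapped with those of Nr2f6+/+. Rel was at 440, 525 and 219 normalized counts, Relb at 166, 169 and 553, and Nfkb2 at 681, 387 and 649. Nfkb1 was at 1617, 2148 and 1314, Nfkbid at 391, 297 and 443, and Bcl3 at 471, 487 and 492. Bcl3 had the narrowest spread of any member in this group, with an SD of 11.2, but an SD of 353 in Nr2f6+/+ IgG2b.

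The combination of gene loss and blockade was compared with Nr2f6+/+ IgG2b, with which the comparisons above share samples. No gene of the 10 was called by limma, against 0.617% of all tested genes. edgeR and DESeq2 also called 0 of the 10, against 0.342% and 1.48%, and at an unadjusted p below 0.05 limma had 1 (Nfkbia), against 9.04%. The log2 fold changes of Nfkbiz and Tnfaip3 were -0.87 (standard error 0.50, limma adjusted p = 0.664) and -0.70 (standard error 0.38, adjusted p = 0.618), and that of Nfkbia was -0.53 (standard error 0.25, adjusted p = 0.528). The log2 fold change was negative for 9 of the 10 genes, with a median of -0.50 beside -0.12 over all tested genes, and 0 of the 10 had groups that did not overlap, against 6.17% of all tested genes. Of the macrophage and monocyte markers 13 of 13 had a negative log2 fold change, 4 were called and 12 had groups that did not overlap, with sums of 1068 to 2397 in Nr2f6-/- αPD-L1 and 13558 to 17868 in Nr2f6+/+ IgG2b. The immediate early genes had a negative log2 fold change for 10 of 10, with 0 called, 3 without overlap and a smallest adjusted p of 0.0824 (limma). The T cell markers summed to 91565 to 101611 against 61103 to 73743, with 0 of 8 called and 5 higher without overlap. With the macrophage and monocyte list in the model the log2 fold changes of Nfkbiz, Tnfaip3 and Nfkbia were 0.07, -0.17 and -1.25 (limma adjusted p = 0.990, 0.979 and 0.443). That fit called 0 of all 11992 tested genes, against 74 as reported. The sums of the list did not overlap between these groups, so the fit cannot separate the list from the groups.

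Whether the effect of blockade differed between genotypes was tested as an interaction. No tested gene was called by limma (0%), and edgeR also called 0 (0%), while DESeq2 called 76 genes (0.634%), 0 of them among the 10. At an unadjusted p below 0.05 limma had 2 of the 10, against 4.97% of all tested genes, Rela (difference of log2 fold changes 0.92, standard error 0.37) and Nfkbia (-0.94, standard error 0.36), each with an adjusted p of 0.974. For Nfkbiz and Tnfaip3 the log2 fold change with blockade was less negative in Nr2f6-/- by 0.82 and 0.80, and the 95% confidence intervals of these differences were -0.62 to 2.27 and -0.28 to 1.89. A fall called in one genotype and not in the other is thus not shown to differ between them.

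The rest of the pathway was followed with 54 further genes in 6 lists by role, of which 53 were tested and Csf2 was not. In each of the 6 comparisons 0 of the 53 were called by limma, and edgeR called 0 as well, while DESeq2 called Tnfrsf9 between genotypes under αPD-L1, against 1.53% of all tested genes, and Tnfrsf9 and Ripk1 with blockade in Nr2f6-/- mice, against 1.92%. Under αPD-L1, 32 of the 53 had a positive and 21 a negative log2 fold change in Nr2f6-/-, with a median of 0.10, and 7 had an unadjusted p below 0.05, against 9.73% of all tested genes. With blockade in Nr2f6+/+ mice the median was -0.16, beside -0.10 over all tested genes, and 4 had an unadjusted p below 0.05, against 7.24% of all tested genes.

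Prkcq, the kinase PKCθ that acts downstream of the antigen receptor, ranged from 201 to 867 normalized counts in Nr2f6+/+ αPD-L1 and from 666 to 1208 in Nr2f6-/- αPD-L1. Its log2 fold change was 1.02 (standard error 0.31, limma adjusted p = 0.220), and that of Rbck1, a subunit of the linear ubiquitin ligase, was 0.31. For the IKK complex and its upstream kinases, 0 of 10 were called, and the smallest unadjusted p under αPD-L1 belonged to Ikbkb, Map3k7 and Chuk, with log2 fold changes of 0.52, -0.25 and 0.31. Of the 9 TRAF and cIAP adaptors, which connect TNF receptors to the kinases, Traf5 had 0.60 (standard error 0.24, adjusted p = 0.375), Birc2 -0.43 and Traf6 0.86. The 2 further IκB genes Nfkbie and Nfkbib had 0.89 and -0.57, with standard errors of 0.67 and 0.34.

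Of 10 further feedback and deubiquitinase genes 0 were called, and with blockade in Nr2f6+/+ mice 6 had a positive and 4 a negative log2 fold change, with a median of 0.14. For 2 of the 10, against 3.22% of all tested genes, every αPD-L1 sample was below every IgG2b sample in Nr2f6+/+ mice, as for Tnfaip3. The deubiquitinase gene Cyld was at 5469 to 5846 normalized counts with IgG2b and 4043 to 5327 with αPD-L1 (log2 fold change -0.21, limma adjusted p = 0.863), and Zc3h12a, which encodes the RNase Regnase-1, at 218 to 392 and 51.2 to 195 (log2 fold change -1.42, adjusted p = 0.867). Under αPD-L1 the 3 with the smallest unadjusted p were Otulin, which removes linear ubiquitin chains (log2 fold change 0.38), and the A20-binding Tnip1 (-0.66) and Tnip3 (1.30, standard error 0.98). Among 15 tested target genes in T cells, Tnfrsf9, the costimulatory receptor 4-1BB, ranged from 3271 to 5512 normalized counts in Nr2f6+/+ αPD-L1 and from 1890 to 3650 in Nr2f6-/- αPD-L1. Its log2 fold change was -0.78 (standard error 0.18, limma adjusted p = 0.0634). With IgG2b it was at 3355 to 3983 in Nr2f6+/+ and 4245 to 4837 in Nr2f6-/-. Tnfrsf4, the receptor OX40, and Bcl2a1b, one of several near-identical survival genes whose reads may be shared, had log2 fold changes of -0.74 and -0.65 under αPD-L1 (adjusted p = 0.315 and 0.360). These named targets were all lower in Nr2f6-/-, but the list was mixed. Of its 15 tested genes 9 had a positive and 6 a negative log2 fold change under αPD-L1, with a median of 0.06. At an unadjusted limma p below 0.05, 2 were higher and 3 lower, against 9.73% of all tested genes in either direction.

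**Figure D4:**
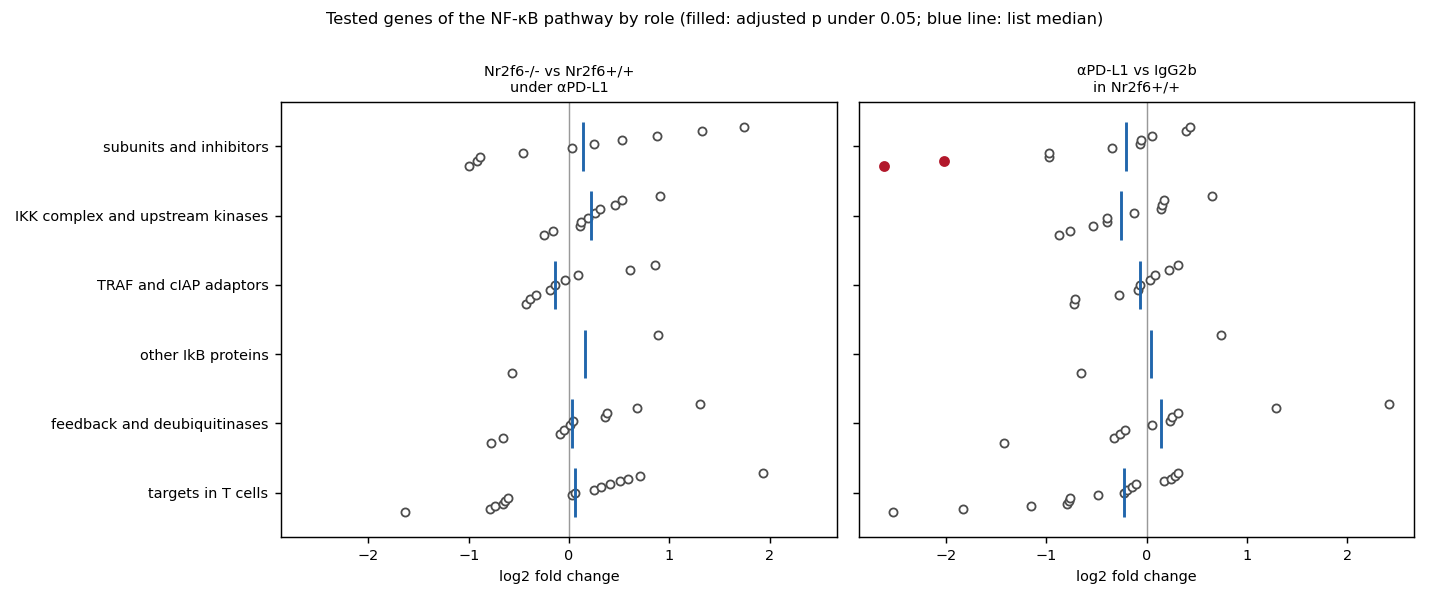
limma log2 fold changes of the 10 subunit and inhibitor genes and of other tested pathway genes in 5 lists by role, for Nr2f6-/- against Nr2f6+/+ under αPD-L1 (left) and for αPD-L1 against IgG2b in Nr2f6+/+ (right). Each point is 1 gene, blue lines are list medians, and filled red points, here Nfkbiz and Tnfaip3 on the right alone, have an adjusted p below 0.05.

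Whether members varied together from sample to sample was examined over the 18 samples after the group means were subtracted. Of 45 pairs, 23 correlated positively and 22 negatively, with a median Pearson's r of 0.02. One pair passed the correction: Nfkbid and Bcl3, both genes of nuclear IκB proteins, had r = 0.806 (permutation p = 0.0001 with 100000 permutations within groups, adjusted over 45 pairs p = 0.00450) and Spearman's rho = 0.734 (permutation p = 0.00079, adjusted p = 0.0355). Without the 2 samples farthest from the median of Nfkbid r was 0.637, and within library sets it was 0.809. The same 3 samples had the lowest normalized counts of both genes: Nr2f6+/+ αPD-L1 replicate 2, with 71.4 of Nfkbid and 78.5 of Bcl3, replicate 4 of that group, with 161 and 110, and Nr2f6-/- αPD-L1 replicate 6, with 44.1 and 153. Nfkbid and Bcl3 both lie on chromosome 7, and so does Relb. Relb had r = 0.211 with Nfkbid and 0.259 with Bcl3, and neither pair passed the correction.

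The tested genes most like each member over the same 18 samples, again without group means, reached r between 0.788 and 0.918. These are descriptions of the highest values among all tested genes and share library and depth. For the subunits they were Bola3 for Rel (r = 0.873), Timm8b for Rela (0.900), Pigyl for Relb (0.811), Bmpr2 for Nfkb1 (0.815) and Gm21967 for Nfkb2 (0.918). For 4 of the inhibitors they were Ctsz for Nfkbia (r = 0.826), Gpt for Nfkbid (0.907), Zfp638 for Bcl3 (0.874) and Hnrnpu for Tnfaip3 (0.878). The second gene for Rel was Ikbkg (r = 0.824), the IKK subunit NEMO, which was the one gene of the pathway lists among the 3 nearest of any member.

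**Figure D5:**
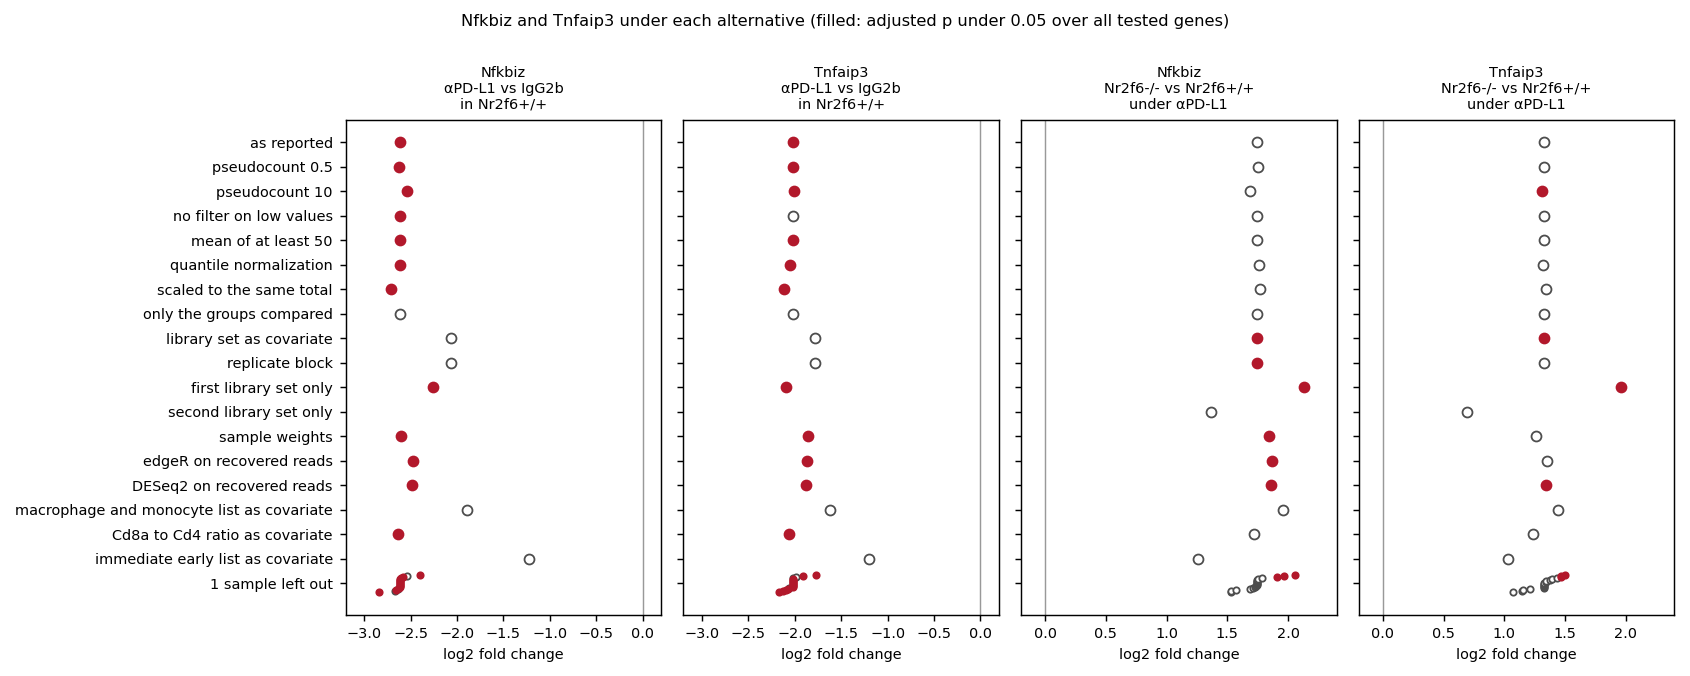
Log2 fold changes of Nfkbiz and Tnfaip3 in 2 comparisons under each alternative way of processing (rows), with samples left out singly in the lowest row. Filled red points have an adjusted p below 0.05 over all tested genes. Every point keeps its sign, from -2.84 to -1.20 with blockade in Nr2f6+/+ and from 0.69 to 2.13 between genotypes under αPD-L1, while the call changes with the setting.

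By median, Nfkbiz and Tnfaip3 were both highest in IgG2b-treated Nr2f6-/- mice, followed by IgG2b-treated Nr2f6+/+ mice, then αPD-L1-treated Nr2f6-/- mice, and were lowest in αPD-L1-treated Nr2f6+/+ mice. In that order the first 2 groups did not overlap for either gene, the middle pair overlapped for both, and so did the last pair, and none of these 3 neighbouring differences was called by limma. For Nfkbia the order was the same for the IgG2b groups, but the Nr2f6-/- group was below the Nr2f6+/+ group under αPD-L1. The last 2 of these groups overlapped with each other, and the second with the third. In the GRCm38 annotation (GENCODE M21) Nfkbiz lies at chr16:55811375-55838899 and Nfkbia at chr12:55489410-55492647, Tnfaip3 at chr10:19000910-19015657, all on the minus strand, and none of them shares exon bases with another annotated gene. Exons of Nfkb2 (chr19:46304320-46312385) share 299 bases with Psd and 531 with AC114539.1, both on the opposite strand, and exons of Bcl3 (chr7:19808462-19822770) share 161 bases with Gm16175. Since the strand setting of the counting is not given in the sources used here, reads there cannot be told apart. Psd and Gm16175 had means of 0.785 and 0.879 normalized counts, while no value was given for AC114539.1 under that name.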

How the data were processed

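RNA of 18 samples in 4 groups was sequenced as 3′ libraries (QuantSeq kit, Ion Torrent). Per the study's methods and the submitters' processing notes, reads were trimmed with Cutadapt and Trimmomatic, mapped to mm10 with STAR and Bowtie2, counted with HTSeq-count and analysed with DESeq2. Versions, annotation and strand setting are not given in the sources used here. The authors deposited 1 signal value per gene and sample, the read count divided by a size factor (0.823 to 1.22). Each column was a set of whole multiples of 1 step, which gave whole reads for 100% of values within a tolerance of 0.01. No 2 columns were identical (0 of 153 pairs), and the median depth was 16554699 reads.

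Genes averaging 10 or more normalized counts were kept (11992 of 37236), and log2(normalized count + 1) was fitted with limma 3.58.1 (R 4.3.3, eBayes with trend) as 4 group means over all 18 samples, and 6 contrasts were tested, including the interaction. The threshold was a Benjamini-Hochberg adjusted p of 0.05. Groups were taken from the labels. A legend of the study counts fewer samples in both αPD-L1 groups than the labels do, and since it does not say which were left out, all 18 samples were used. The samples come from different mice. Replicate numbers are shared between groups, but deviations of same-numbered samples correlated between -0.029 and 0.037 over 21 pairs, so the numbers were not taken as pairs.

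The 10 genes and the lists were chosen with earlier results of these data known. Named were all 10, pathway genes called in any comparison plus the 3 of each list with the smallest unadjusted p between genotypes under αPD-L1, and the 3 genes nearest to each member, some of which are not reported here. Other genes named with values were chosen after their values were seen. Correlations were tested with permutations within groups in Python. Promoters are from RefSeq (GRCm38.p6) and positions from GENCODE M21. Alternatives were pseudocounts of 0.5 and 10, a filter at a mean of 50 or none, quantile normalization, equal totals, only the groups compared, library set as covariate, replicate block, each library set alone, sample weights, 3 further covariates, edgeR 4.0.16 and DESeq2 1.42.0 on the recovered reads, and leaving out each sample. The further covariates were the macrophage and monocyte list, the Cd8a to Cd4 ratio and the immediate early list. The last of them marks a cell state and not a cell type. The fits were tested on simulated data.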

Additional observations from a re-analysis of the deposited data

How the results depend on the processing

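Every alternative kept the sign of Nfkbiz and Tnfaip3 with blockade in Nr2f6+/+ mice and between genotypes under αPD-L1. With blockade in Nr2f6+/+ mice the number of the 10 genes called, 2 as reported, was 1 with no filter on low values (Nfkbiz), 0 with only the groups compared, 0 with the library set as covariate, 0 with the macrophage and monocyte list and 0 with the immediate early list as covariate, and 0 to 2 when 1 sample was left out. Over all tested genes 29 were called as reported. In the same order, these settings called 37 (of 20903), 15, 12, 0, 0 and 6 to 31. Between genotypes under αPD-L1 the number of the 10 genes called was 0 as reported, 1 with a pseudocount of 10 (Tnfaip3), 1 with sample weights and 1 with edgeR (both Nfkbiz), 2 with the library set as covariate, 2 in the first library set alone and 2 with DESeq2, and 0 to 2 with 1 sample left out. Over all 11992 tested genes 21 were called as reported. In the same order, these settings called 29, 23, 22, 29, 34, 184 and 9 to 27. With blockade in Nr2f6-/- mice the number of the 10 genes called was 0 as reported, 1 (Nfkbia) with quantile normalization, sample weights or DESeq2, and 0 to 1 with 1 sample left out. Over all tested genes 39 were called as reported, and 40, 57, 230 and 13 to 45 in these settings. The number of the 10 genes called stayed 0 in the other 3 comparisons under all alternatives run.

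Of the 53 other pathway genes, 0 were called as reported. Between genotypes under αPD-L1, 1 (Tnfrsf9) was called with quantile normalization, the library set as covariate, sample weights or DESeq2, and 0 to 1 with 1 sample left out. These settings called 28, 29, 23, 184 and 9 to 27 of all tested genes, in the same order. With blockade in Nr2f6-/- mice 1 (Tnfrsf9) was called with the library set as covariate, 2 (Ripk1 and Tnfrsf9) with sample weights or DESeq2, and 0 to 1 with 1 sample left out. Of all tested genes these settings called 29, 57, 230 and 13 to 45. Against Nr2f6+/+ IgG2b the combination had 1 (Ier3) with sample weights and 0 to 1 with 1 sample left out, beside 300 and 10 to 92 of all tested genes. The causes of these changes were not tested.

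The replicate number as a block, which the numbers do not warrant, gave 0 of the 10 genes with blockade in Nr2f6+/+ mice, 1 (Nfkbiz) between genotypes under αPD-L1, and 1 pathway gene (Tnfrsf9) in the latter comparison and with blockade in Nr2f6-/- mice. In these 3 comparisons the block gave 12, 31 and 27 of all tested genes. Over all genes the number called as reported and its range over the alternatives, single samples left out included, was 21 (0 to 184) between genotypes under αPD-L1, 0 (0 to 88) under IgG2b, 29 (0 to 94) with blockade in Nr2f6+/+ mice, 39 (0 to 230) in Nr2f6-/- mice, 74 (0 to 300) for the combination and 0 (0 to 76) for the interaction. The highest counts came from DESeq2, except for the combination, where sample weights gave the most. Scaling moved the median log2 fold change of all genes with blockade in Nr2f6+/+ mice from -0.10 to -0.19 (same total) or -0.001 (quantile). Of 2040 recomputed log2 fold changes of single genes 87 changed sign, 0 of them called in either fit. With 3 IgG2b samples per genotype, all in the first library set, the fits cannot separate blockade from the library set outside that set.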
